A study of Mus musculus with 8 samples.

Results

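The genes described here make, fold and organise the mucus of intestinal goblet cells. They are Muc2, Clca1, Fcgbp, Tff3, Zg16, Muc13, Agr2 and Spdef, chosen by name among the 18194 genes that a probe set names alone, and 13 of the 45101 probe sets of the array belong to them. All 8 genes had a probe set past the intensity filter, which kept 11988 genes. RNA came from Peyer's patches (clusters of lymphoid follicles in the wall of the small intestine) of C3H/Hej mice, a strain whose lipopolysaccharide receptor Tlr4 is defective. Mice 6 weeks old were gavaged for 28 days with ovalbumin (OVA), an egg protein used as an oral allergen, at 40 mg/kg each day, or with saline alone. The groups were 1 female control (mouse 7), 1 male control (mouse 8), 2 female OVA mice (2 and 12) and 4 male OVA mice (1, 5, 8 and 13), each read on 1 single-colour array. OVA mice are labelled as allergic, and the labels give no readout of allergy. Nothing in the labels says how the mice were housed or whether they were littermates, so p-values measure the spread between these samples.

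Goblet cells lie among the absorptive cells of the villi and crypts and release mucus that keeps bacteria and food antigens away from the epithelium. Muc2, the gel-forming mucin, is folded and joined by disulphide bonds in the endoplasmic reticulum with the help of Agr2, a protein disulphide isomerase, then densely O-glycosylated and stored in granules. Spdef is a transcription factor of the ETS family that drives goblet cell maturation, and type 2 cytokines such as Il13 are known inducers of goblet cell genes. The epithelium over a Peyer's patch follicle holds few goblet cells, so a dissected patch carries them mainly on the villi and crypts around the follicles.

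The windows of 250 bases upstream of the annotated start of 4 of these genes are printed because they belong to the genes with the largest log2 difference (Muc2), the smallest p (Fcgbp) and to the members that act inside the cell (Agr2 and Spdef). They are RefSeq sequences of build GRCm38.p6, 5′ to 3′ along each gene, from chr7:141690090-141690339 (plus strand), chr7:28070986-28071235 (plus strand), chr12:35992675-35992924 (plus strand) and chr17:27728952-27729201 (minus strand). Capitals mark matches on either strand to TATAAA (the TATA box core), CAGCTG or CAGATG (E boxes, the kind bound by Atoh1), GGATGT (an ETS core of the kind Spdef prefers) or TGTTTAC (a forkhead core).
Muc2: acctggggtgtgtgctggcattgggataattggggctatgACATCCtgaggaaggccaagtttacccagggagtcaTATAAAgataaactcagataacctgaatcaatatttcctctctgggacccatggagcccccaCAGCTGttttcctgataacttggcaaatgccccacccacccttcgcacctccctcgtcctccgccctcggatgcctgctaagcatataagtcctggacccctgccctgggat
Fcgbp: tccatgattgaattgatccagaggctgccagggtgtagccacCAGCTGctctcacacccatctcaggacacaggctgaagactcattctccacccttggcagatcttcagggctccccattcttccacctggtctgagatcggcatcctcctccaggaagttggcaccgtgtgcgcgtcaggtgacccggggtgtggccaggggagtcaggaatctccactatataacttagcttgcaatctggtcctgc
Agr2: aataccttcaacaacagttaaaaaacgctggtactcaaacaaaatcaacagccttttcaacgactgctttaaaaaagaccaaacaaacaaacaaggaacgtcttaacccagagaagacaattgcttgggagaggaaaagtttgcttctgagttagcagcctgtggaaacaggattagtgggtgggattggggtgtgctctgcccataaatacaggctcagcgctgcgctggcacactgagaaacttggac
Spdef: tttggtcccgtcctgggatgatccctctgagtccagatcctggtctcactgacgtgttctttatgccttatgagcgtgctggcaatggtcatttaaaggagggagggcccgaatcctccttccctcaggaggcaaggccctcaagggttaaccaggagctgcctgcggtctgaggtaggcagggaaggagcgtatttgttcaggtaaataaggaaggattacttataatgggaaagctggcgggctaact
Muc2 held 3 matches, TATAAA at 174 bases upstream of the start, CAGCTG at 112 and GGATGT, on the opposite strand, at 210. Fcgbp held 1, CAGCTG at 208 bases upstream. Agr2 and Spdef held none of these letters in their windows. Among 32851 windows of the same length, 12.4% held TATAAA, 13.0% CAGCTG, 14.4% CAGATG, 9.46% GGATGT and 3.17% TGTTTAC, so single matches are common. The first annotated start of Muc13 had 1 match, CAGATG on the opposite strand at 44 bases upstream, and its other start had none. Clca1, Tff3 and Zg16 are named only.

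Peyer's patches are the labelled tissue, although the extraction protocol speaks of human cortex. All 13 measured B cell markers passed the filter, against 3 of 11 measured neuron and glia markers. Across the 8 arrays the 2 to 98% trimmed mean intensity was 64.7 to 67.8. One array stood apart for the genes described here. At their brightest probe sets male OVA 8 had the lowest value of all 8 members, where it was the lowest array for 18.0% of all genes. That mouse also had the highest B cell marker score, 0.64 above the mean of the arrays on the log2 scale, and the lowest pan-epithelial score, 0.42 below it (-0.42). The main results are therefore also given without it. Female OVA 12 had nearly as high a B cell score (0.61) and a pan-epithelial score of -0.19. Its members averaged 0.045 below their means (-0.045), with Muc2 at 0.11. In bulk tissue, fewer cells of a type and less RNA per cell cannot be told apart.

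OVA against saline asked whether repeated oral exposure to the allergen went with a different level of mucus transcripts in the patch. All 8 members had a lower fitted level in OVA mice, by 0.09 to 0.53 on the log2 scale with a median of -0.28 (lowest -0.53, highest -0.09), beside a median of 0.02 over all genes. A fitted level below the controls was found for 46.3% of all genes. No member passed limma's test (smallest adjusted p = 0.438, for Fcgbp), nor did any of the 22518 probe sets tested (0% called; smallest adjusted p = 0.21). An unadjusted p under 0.05 on the lower side was found for 1 member, Fcgbp, and for 3.82% of all genes. At the brightest probe sets, all 6 OVA arrays lay below both controls for 0 members, beside 4.65% of all genes. All lay above both for 0 members, beside 7.99% of all genes. Without male OVA 8 all 8 members were still lower, with a median of -0.22, beside 45.8% of all genes. Without male control 8, which leaves the females to compare, 6 of 8 were lower with a median of -0.11, and without female control 7 all 8 were lower with a median of -0.41.

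Muc2, the scaffold of the mucus gel, had an intensity of 2883 in the female control and 3837 in the male control. In OVA females it was 2739 and 2680.1, in OVA mice 2 and 12. In OVA males 1, 5, 8 and 13 it was 2228, 1851, 1469.5 and 3003. Male OVA 13 lay above the female control and the other 5 OVA mice below both controls, so the groups overlapped by 1 mouse. Mean intensity was 3359.9 ± 675 (SD, n = 2) for controls against 2328 ± 587 (SD, n = 6) for OVA mice, a log2 difference of -0.53 ± 0.27 (SE; 95% interval -1.13 to 0.08; limma adjusted p = 0.484). It was -0.43 without male OVA 8. Without male control 8 it was -0.09, and without female control 7 it was -0.89. With sex in the fit, leaving out a control leaves only the mice of the other sex to compare, so these are the values within females and within males.

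Clca1, a secreted metalloprotease-like protein that processes Muc2 in the mucus layer, was at 1611 and 2021 in the female and male control. OVA females 2 and 12 had 1305 and 1205. OVA males 1, 5, 8 and 13 had 1081, 1370.1, 975 and 1934. Again 5 of 6 OVA mice lay below both controls and male OVA 13 lay between them. The log2 difference was -0.51 ± 0.24 (SE; 95% interval -1.05 to 0.02; limma adjusted p = 0.456), and -0.44 without male OVA 8. Its second probe set, near the filter at 8.23 to 18.9, was highest in male OVA 13 and had a log2 difference of -0.17 ± 0.21 (SE). Its mean was 13.6 in controls and 11.86 in OVA mice, so it passed the filter at 11.9 through the controls and its difference supports nothing here.

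Fcgbp, a large secreted protein that binds the Muc2 network, was at 3195 and 3767 in the female and male control. It was at 2737 and 2618 in OVA females 2 and 12 and at 2818, 3246, 2339 and 3236 in OVA males 1, 5, 8 and 13. Males 5 and 13 were just above the female control, and the other 4 OVA mice were below both. The means were 3481 ± 405 (SD, n = 2) and 2832 ± 356 (SD, n = 6), and the log2 difference was -0.33 ± 0.14 (SE; 95% interval -0.64 to -0.01; limma adjusted p = 0.438). Without male OVA 8 it was -0.27 ± 0.10 (SE; adjusted p = 0.347).

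Tff3, a trefoil peptide released with mucus that aids epithelial repair, stood at 4567 and 5173 in the controls and at 3252, 4229 and 5077 (lowest, median, highest) in OVA mice, a log2 difference of -0.23 ± 0.16 (SE; limma adjusted p = 0.579). It was -0.16 without male OVA 8 and -0.13 without male control 8. Here 5 of 6 OVA mice lay below both controls, and male OVA 13 was the exception. Zg16, a lectin of the mucus that binds Gram-positive bacteria, stood at 6568 and 6329 in the female and male control and at 5085, 6161 and 6682 (lowest, median, highest) in OVA mice. Its log2 difference of -0.09 ± 0.12 (SE; 95% interval -0.37 to 0.19; limma adjusted p = 0.786) was the smallest of the members, and 2 OVA mice lay above both controls. It was -0.045 without male OVA 8, where Agr2 was nearer to 0, and without female control 7 it was -0.051. The other 2 probe sets of Zg16 gave -0.06 ± 0.10 and -0.06 ± 0.13 (SE). The brightest Zg16 probe set is of a type that can bind related transcripts, so its level is uncertain.

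Muc13, a mucin anchored in the apical membrane of both enterocytes and goblet cells, was at 1892 in the female control and 2533 in the male control. OVA females 2 and 12 had 1887 and 1708, and OVA males 1, 5, 8 and 13 had 1531, 1572, 1495 and 2209.6. Female OVA 2 was level with the female control, and male OVA 13 stood well apart from the other 3 OVA males. The log2 difference was -0.36 ± 0.18 (SE; 95% interval -0.77 to 0.05; limma adjusted p = 0.484). The dimmer second probe set gave -0.22 ± 0.11 (SE). It was at 124.5 and 132 in the female and male control and at 100.2 to 119 in OVA mice, all below both controls. At that probe set male OVA 8 (117) was not the lowest OVA mouse, and male OVA 13 (119) did not stand apart. Those traits of Muc13 therefore rest on the brighter probe set alone. At the brighter probe set the difference was -0.08 without male control 8, -0.59 without female control 7 and -0.32 without male OVA 8.

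Agr2 and Spdef, which act inside the cell in folding and in differentiation, had differences between the groups that were small beside the spread within the OVA group. Agr2 was at 1139 and 1136 in the controls and at 1268 and 1099 in OVA females 2 and 12. OVA males 1, 5, 8 and 13 had 1072, 941, 654 and 1149. OVA mice lay on both sides of the controls, 2 above and 4 below. The log2 difference was -0.13 ± 0.21 (SE; 95% interval -0.60 to 0.34; limma adjusted p = 0.814), and without male OVA 8 it was -0.04 ± 0.12 (SE).

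Spdef was at 44.8 and 53.2 in the female and male control, at 52.2 and 45.3 in OVA females 2 and 12, and at 48.6, 43.5, 21.4 and 45.3 in OVA males 1, 5, 8 and 13. Male OVA 8 stood far below the rest, and the other OVA mice lay within or just under the range of the controls. The log2 difference was -0.19 ± 0.27 (SE; 95% interval -0.79 to 0.42; limma adjusted p = 0.792), and without that mouse it was -0.05 ± 0.11 (SE). These intervals leave room for differences in either direction, so a difference between the groups in Agr2 or Spdef was not resolved at this number of arrays.

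**Figure D1:**
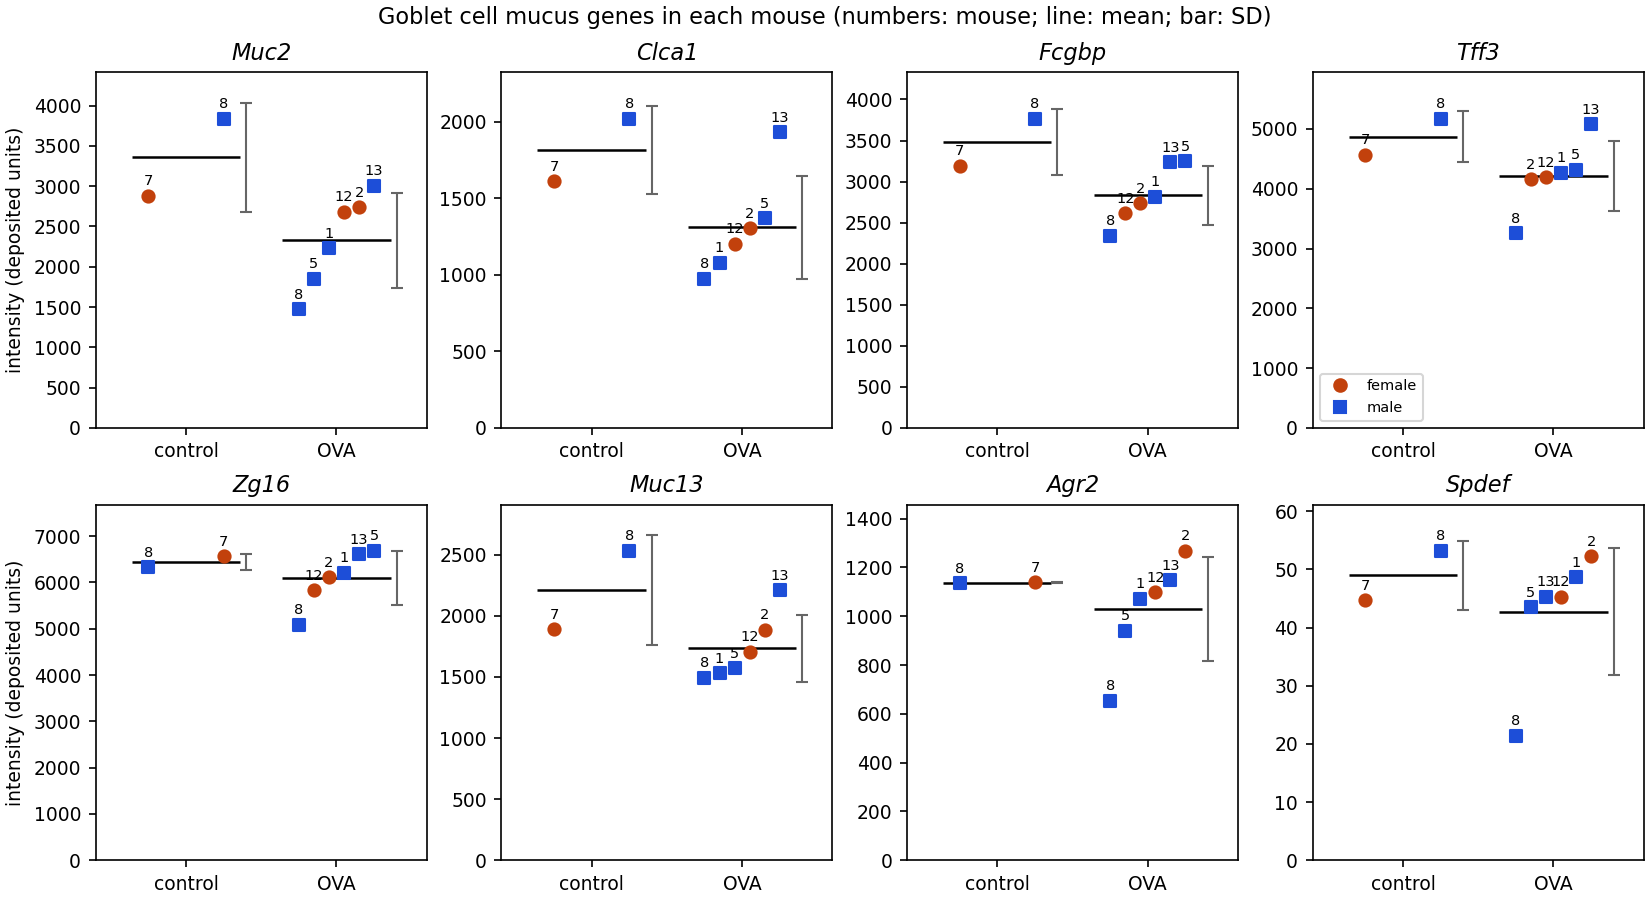
Deposited intensity of the brightest probe set of each gene (vertical axis from 0, its own scale in each panel) in control and OVA mice. Points are mice with their numbers, lines are group means and bars are SD (n = 2 and 6); male OVA 8 is the lowest point in every panel and male OVA 13 reaches control levels in most.

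The members followed each other from mouse to mouse. All 8 were above their own mean in both controls and in male OVA 13, and all 8 were below it in male OVA 8. Male control 8 was the highest array for 6 of the 8, where it was the highest for 16.8% of all genes. Over the 28 pairs of members the correlation across the 8 arrays ran from r = 0.45 to 0.95 with a median of 0.78, given as a description since all pairs share the same arrays. Agr2 and Spdef were the closest pair. Without male OVA 8 (n = 7) the range was -0.38 to 0.94 with a median of 0.53, and 4 pairs were below 0. Clca1 and Tff3 were then at 0.94 and Muc2 and Muc13 at 0.91, while Zg16 with Spdef was at -0.38. Agr2 and Spdef had r between 0.52 and 0.81 with Fcgbp, Tff3 and Zg16 over 8 arrays and between -0.38 and 0.17 without male OVA 8. The secreted Clca1, Tff3 and Fcgbp kept r between 0.84 and 0.94 without it.

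The spread between OVA mice differed by member. The highest OVA mouse had 2.44 times the Spdef intensity of the lowest, 2.04 times for Muc2, 1.98 times for Clca1 and 1.94 times for Agr2. It had 1.31 times the intensity for Zg16 and 1.39 times for Fcgbp. The SD of Muc2 over OVA arrays was 0.39 on the log2 scale and that of Spdef 0.41, beside a median of 0.17 over all genes. These were above 93.0% and 93.8% of all genes, while Zg16 was above 39.4%. The spread of Spdef and Agr2 came mostly from male OVA 8. Without it the highest OVA mouse had 1.2 times the Spdef intensity of the lowest and 1.35 times that of Agr2, against 1.62 times for Muc2 and 1.79 times for Clca1. The SD of Spdef was then 0.095, above 20.7% of all genes, and that of Muc2 0.28, above 84.4%.

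**Figure D2:**
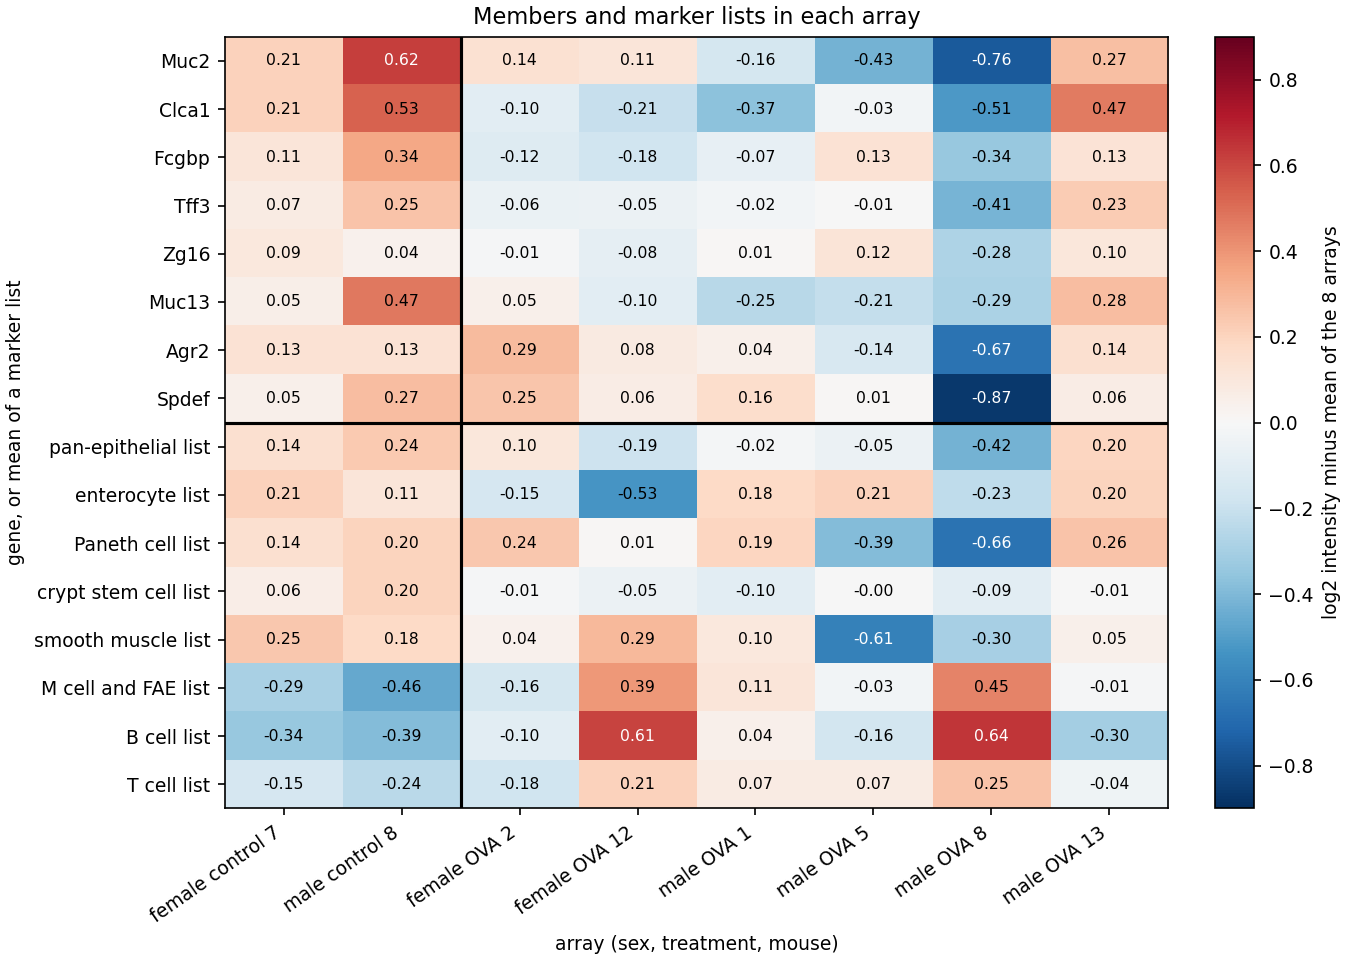
Log2 intensity of each gene, and mean log2 intensity of each marker list, minus its mean over the 8 arrays (colour and printed values), for controls (left of the black line) and OVA mice; FAE is the follicle-associated epithelium. The members and the pan-epithelial list are lowest in male OVA 8 (Muc2 at -0.76, the list at -0.42), where the B cell list is highest at 0.64. Female OVA 12 has the B cell list at 0.61 and Muc2 at 0.11.

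Marker lists of other cells differed beside these values, and their part in the results was not tested. The epithelial scale given next is a description. All 15 pan-epithelial markers were lower in OVA mice with a median of -0.22, none past the test, and their score was 10.5 to 10.6 in controls and 9.98 to 10.6 in OVA mice. Of 16 measured enterocyte markers 15 were lower (median -0.20; score 10.6 to 10.7 in controls, 9.92 to 10.7 in OVA mice), as were all 7 measured Paneth cell markers (median -0.21; score 10.0 to 10.1 and 9.24 to 10.2). On the higher side were all 13 B cell markers (median 0.56; score 7.38 to 7.43 and 7.47 to 8.42) and all 10 markers of M cells and the epithelium over the follicles (median 0.49; score 7.70 to 7.87 and 8.00 to 8.61). The B cell and M cell scores of all 6 OVA mice lay above both controls, and the pan-epithelial score of 5 of 6 lay below both. All 8 smooth muscle markers were lower too (median -0.22; score 8.45 to 8.51 in controls, 7.66 to 8.56 in OVA mice), and 8 of 9 measured T cell markers were higher (median 0.25; score 6.07 to 6.16 and 6.13 to 6.56). Without male OVA 8 all 15 pan-epithelial markers were lower (median -0.17), as were 7 of 8 smooth muscle markers (median -0.21), and 12 of 13 B cell markers were higher (median 0.43). The beta-actin ratio of 3′ to 5′ signal, a measure of RNA integrity, was 1.43 and 1.54 for the female and male control. It was 1.58 for male OVA 8 and 1.29 to 1.37 for the remaining OVA animals. The same ratio for Gapdh was 0.90 and 1.00 for the female and male control. For Gapdh it was 0.96 in male OVA 8 and 0.83 to 0.89 in the remaining OVA animals. The part of either ratio in these results was not tested.

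To read the members per epithelial RNA, each array's pan-epithelial score was subtracted from every gene before the fit. On this scale 4 members were below 0 and 4 above, with a median of -0.02, while all genes had a median of 0.27 and 9.98% of genes were below 0. The subtraction shifts the fitted difference of every gene by the same amount, so the order of genes cannot change. All 8 members therefore lay below the median of all genes here as on the deposited scale, which adds no further result. Muc2 was at -0.27 ± 0.23 (SE; 95% interval -0.77 to 0.22; limma adjusted p = 0.519) and Clca1 at -0.26 ± 0.22 (SE; adjusted p = 0.519). Muc13 was at -0.10 ± 0.22 (SE), Fcgbp at -0.07 ± 0.21 (SE) and Tff3 at 0.03 ± 0.20 (SE). Spdef was at 0.07 ± 0.23 (SE), Agr2 at 0.12 ± 0.21 (SE) and Zg16 at 0.16 ± 0.21 (SE). No member passed, nor did any probe set (0% called; smallest adjusted p = 0.466; 2292 probe sets with an unadjusted p under 0.05). Per epithelial score male OVA 8 was the lowest array for 2 members, Agr2 and Spdef, instead of 8. Muc2 relative to epithelium was lowest in male OVA 5, 0.38 below its mean (-0.38), followed by male OVA 8 (-0.34), and highest in male control 8 (0.39) and female OVA 12 (0.29). With the score as a covariate beside sex, Agr2 was at 0.19, Spdef at 0.20 and Zg16 at 0.047, and the other 5 members stayed below 0. Without male OVA 8, Muc2 was at -0.24 and Clca1 at -0.25 on the scale relative to the score, 4 members were again below 0, and 58 probe sets passed, none of a member. Without male control 8, Muc2 was at 0.097 and 2 members were below 0. With array weights Clca1 was at -0.48 (limma adjusted p = 0.057) and Muc2 at -0.36, where 3879 of the 22518 tested probe sets passed.

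**Figure D3:**
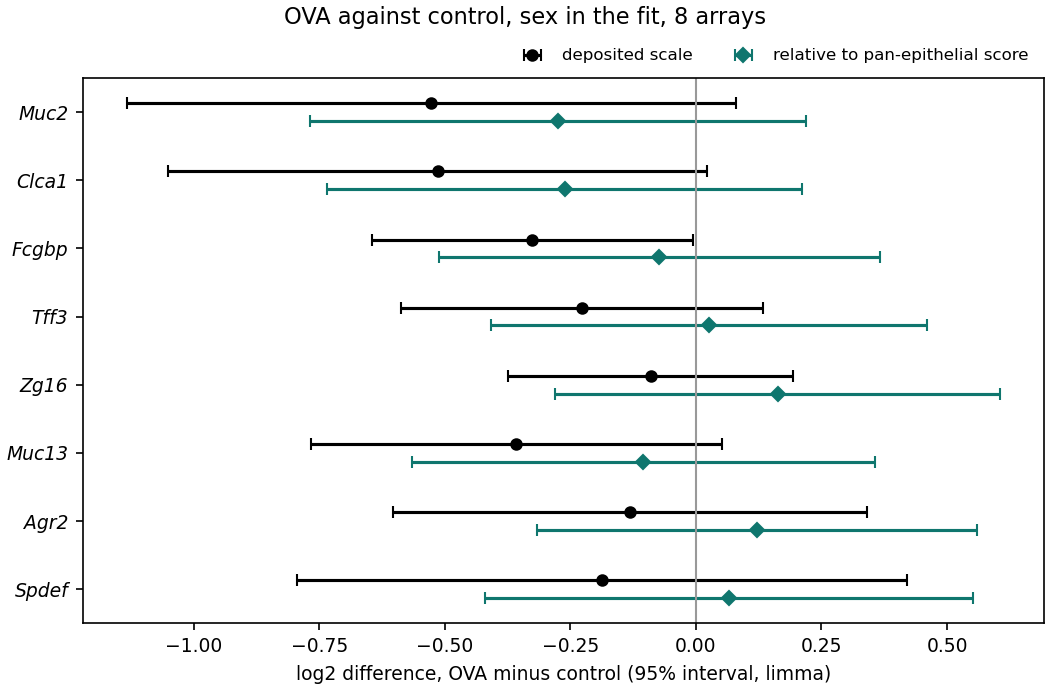
Log2 difference of OVA minus control for each gene with its 95% interval from limma (8 arrays, sex in the fit), on the deposited scale (black circles) and after subtraction of the pan-epithelial score (green diamonds). On the deposited scale all 8 points lie below 0 and the interval of Fcgbp alone excludes it, before adjustment over all probe sets; after subtraction 4 lie below 0 and 4 above.

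The sexes were compared in the same fit. Of the 8 members 3 were higher in females, Muc2 at 0.17 ± 0.24 (SE), Agr2 at 0.25 ± 0.19 (SE) and Spdef at 0.17 ± 0.24 (SE). The other 5 lay between -0.14 and -0.0093 (54% of all genes were lower in females), and none passed limma's test (smallest adjusted p = 0.909), with 0.0533% of probe sets called. Muc2 was at 0.039, Agr2 at 0.12 and Spdef at -0.010 without male OVA 8. The OVA effect on Muc2 was -0.89 ± 0.33 (SE) within males and -0.09 ± 0.36 (SE) within females. The difference between these effects was -0.80 ± 0.49 (SE; 95% interval -1.96 to 0.36; limma adjusted p = 0.722), and -0.64 without male OVA 8. For Muc13 the effects were -0.59 ± 0.23 (SE) in males and -0.08 ± 0.25 (SE) in females, with a difference of -0.52 ± 0.33 (SE; adjusted p = 0.737). For 7 of 8 members the effect was lower in males, beside 55.7% of all genes, and Zg16 was the exception at 0.09 ± 0.26 (SE). None of these differences passed, and 0% of probe sets were called. Each sex had 1 control, so the higher Muc2 and Muc13 of male control 8 enter the male effect in full.

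The wider goblet and mucus genes, in 6 lists, lay mostly on the same side. Of 90 listed genes 67 passed the filter, 58 of them were lower in OVA mice (86.6%, beside 46.3% of all genes), and none passed limma's test. An unadjusted limma p under 0.05 was found for 13 on the lower side, beside 3.82% of all genes. On the higher side it was found for 1, Rab27a, beside 6.39% of all genes. Without male OVA 8, 55 of 67 were lower, beside 45.8% of all genes. The counts by list that follow are of genes past the filter.

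Among the listed secreted and surface products of goblet cells and other epithelial cells, 12 of 13 were lower, with a median of -0.32. Without male OVA 8 the median was -0.20. The list shares genes with the Paneth cell list above, so the counts of these lists are not separate. Dmbt1, a scavenger receptor protein of mucosal fluids, averaged 2520.4 ± 229.9 (SD, n = 2) in controls against 2016 ± 536 (SD, n = 6) under OVA (limma adjusted p = 0.419). Lypd8, which keeps flagellated bacteria off the epithelium, averaged 3769 ± 165 (SD, n = 2) against 3092 ± 291 (SD, n = 6; limma adjusted p = 0.428). Retnlb, an antibacterial protein induced by type 2 cytokines, was at 1378 and 2443 in the female and male control and at 619 to 1624 in OVA mice, a log2 difference of -0.66 ± 0.38 (SE; limma adjusted p = 0.519). Tff1, another trefoil peptide, was the 1 gene on the higher side at 0.09. The other mucins were mostly dim: of 12 listed, 8 had a probe set and 2 passed the filter. Muc3, a membrane mucin of enterocytes, was at -0.64 ± 0.37 (SE) and Muc5b at 0.03. Muc5ac and Muc1 reached at most 6.83 on any array, below the filter at 11.9.

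Transcription factors of the secretory lineage and the epithelium were lower in 10 of 11 (median -0.28). Elf3 and Ehf, epithelial ETS factors, were at -0.55 ± 0.17 and -0.41 ± 0.14 (SE), and Foxa2, a forkhead factor, at -0.37 ± 0.14 (SE; limma adjusted p = 0.398 to 0.413 for these 3). Atoh1, which commits crypt cells to the secretory lineage, was at 78.2 and 133.9 in the female and male control and 52.3 to 96.2 in OVA mice. Gfi1, which acts after Atoh1, was the 1 gene on the higher side at 0.17. Genes of mucin folding and O-glycosylation were lower in 16 of 20 (median -0.10). Among them were the glycosyltransferases B4galnt2 at -0.55 ± 0.18 (SE) and Galnt7 at -0.47 ± 0.22 (SE). The sulphotransferase Gal3st1 was at -0.43 ± 0.17 (SE). Xbp1, the stress sensor target that enlarges the endoplasmic reticulum, was at -0.07 ± 0.12 (SE).

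Of the genes of granule secretion and goblet cytoplasm 10 of 12 were lower, and 8 of 12 without male OVA 8. Sytl2, which tethers granules, was at -0.37 ± 0.13 (SE) and Fer1l6 at -0.41 ± 0.12 (SE). Fer1l6 was dim, at 15.6 and 17.7 in the controls and 9.35 to 15.1 in OVA mice, so it passed the filter at 11.9 through its level in the controls and its difference supports nothing here, although it is 1 of the 13 above. Rab27a, a granule GTPase also used by cytotoxic lymphocytes, was on the higher side at 0.36 ± 0.12 (SE; limma adjusted p = 0.409). Of 10 listed ion channels and transporters with a probe set, 9 passed the filter and all 9 were lower (median -0.22). The list does not separate secretion from absorption, so its count is no measure of mucus hydration. Slc12a2, which loads chloride, was at -0.33 ± 0.12 (SE), Kcnq1 at -0.30 ± 0.12 (SE) and Slc9a3 at -0.38 ± 0.19 (SE). Signals that act on goblet cells were not on 1 side, with 3 of 8 lower and a median of 0.04. Il33, an epithelial and stromal alarm cytokine, was at 0.34 ± 0.24 (SE), Il13ra1, a receptor chain for Il13, at -0.20 ± 0.17 (SE) and Il10rb at -0.19 ± 0.15 (SE). Il13 reached at most 13.4 on any array and Il4 10.0, and both had a mean level below the filter, so these inducing cytokines were not compared here.

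**Figure D4:**
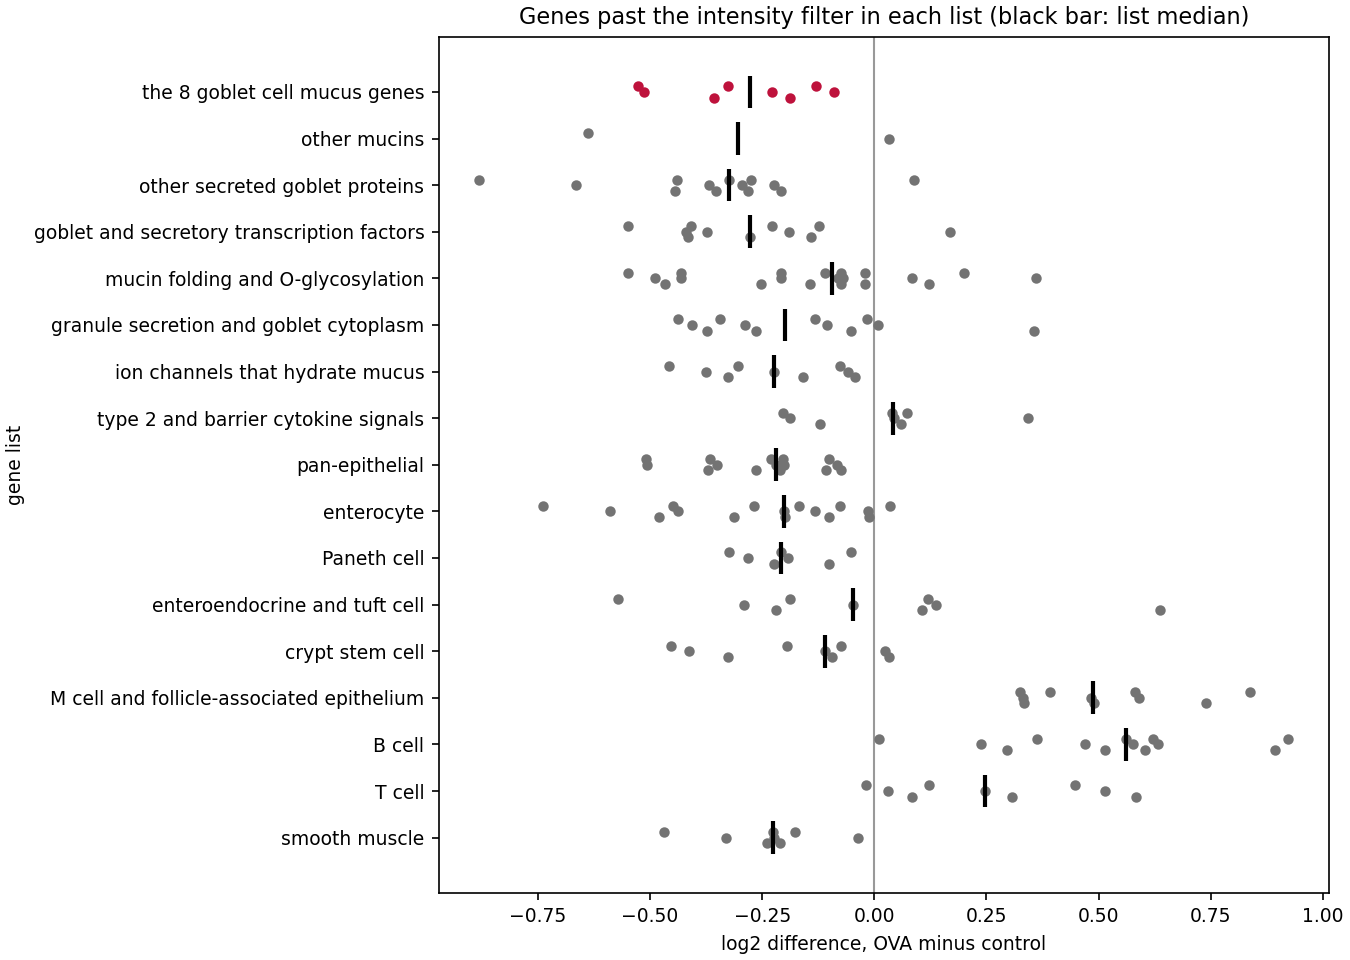
Log2 difference of OVA minus control (horizontal axis) for each gene past the intensity filter, by list; points are genes and black bars are list medians. The 8 goblet cell mucus genes (red, median -0.28) lie on the side of the pan-epithelial (-0.22) and smooth muscle (-0.22) lists. They lie away from the B cell (0.56) and M cell (0.49) lists.

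Outside the members, the 8 genes whose values followed the mean of the members most closely over the 8 arrays were Arhgap32, Klk1, Pof1b, Tprn, Ntn1, Lad1, Hgfac and Neo1, with r = 0.98 for each and rho between 0.86 and 0.98. Klk1, a kallikrein protease found in goblet cells, was at 371 and 512 in the female and male control, at 169 in male OVA 8, with 295 to 486 for the remaining OVA animals. Ntn1, the guidance factor netrin, was at 66.5 and 85.6 in the controls and 38.3 in male OVA 8. Over the 6 OVA arrays alone these genes had r = 0.970 to 0.995 with the members. They had r = 0.930 to 0.988 without male OVA 8 (n = 7). The ranking is a description of these arrays, chosen among 11988 genes, with no test.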

How the data were processed

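RNA of 8 Peyer's patch samples was hybridised to single-colour Affymetrix mouse arrays with a biotin label, per the labels' protocols. The authors deposited probe set intensities on a linear scale; MAS5 is named in the submitters' processing notes, and no settings are stated there. Of the tested probe sets, 31.8% had exactly equal values on 2 or more arrays. Array distributions were nearly alike: at equal rank the highest array was a median of 1.07 times the lowest. Such ties are unusual for MAS5 values, so the normalization behind the deposited values is uncertain, and like trimmed means may follow from it. Intensities were taken to log2(value + 4.88), the 25th percentile of all values. AFFX controls (64 probe sets) were removed, and the 22518 probe sets whose mean log2 value exceeded the median over all (intensity 11.9) were tested. In the platform annotation 34958 probe sets carry 1 symbol, 932 carry several and 9211 carry none. A gene was read from its brightest probe set that names it alone. Tests were two-sided limma fits (version 3.58.1, R 4.3.3; lmFit, then eBayes) with Benjamini-Hochberg adjustment over all tested probe sets and a threshold of 0.05. Treatment and sex were terms of 1 additive fit (5 residual degrees of freedom). The male minus female OVA effect used 4 group means (4 residual degrees of freedom), taking the spread of a group with 1 array from the other groups. A list score is the mean log2 value of its genes past the filter. The named genes were the members, the 3 genes of smallest p in each goblet list, and the 8 non-members most correlated with the members; Tff1, Gfi1, Xbp1, Atoh1, Muc1, Muc5ac, Il13 and Il4 were added from the lists after their values were seen. Members and lists were chosen with earlier results of these data known. The fit was tested on simulated data first. Promoter windows came from RefSeq tables of GRCm38.p6, which held 5 of the 8 members. Alternatives were another pseudocount, scaling, filter, variance model, array weights, covariates, probe set rule, contrasts within each sex and leaving out arrays. Python 3.11.15, pandas 2.3.3, NumPy 2.4.6, SciPy 1.17.1 and matplotlib 3.10.9 were used for tables and figures.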

Additional observations from a re-analysis of the deposited data

Results flagged for a closer look

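Spdef in male OVA 8 lay far below the other OVA mice: its gap to the nearest array was 0.857 of the range of the 4 male OVA arrays and 0.785 of that of the 6 OVA arrays. At its brightest probe set, Muc13 in male OVA 13 lay above the other male OVA mice, with a gap of 0.871 of the range. At its dimmer probe set male OVA 13 (119) was close to male OVA 8 (117). Among the 16 sets of values examined (8 genes in the male OVA and in all OVA arrays), chance flags about 1 in 20. Spdef was also above the female control in both female OVA mice and below the male control in all 4 male OVA mice; the male minus female OVA effect was -0.54 ± 0.54 (SE) and did not pass limma's test (adjusted p = 0.847).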

How the results depend on the processing

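The number of members past the threshold was 0 in every comparison under every alternative run, which is no measure of stability, since 0 probe sets passed for OVA against control as well. Over all probe sets, the fit relative to the pan-epithelial score called 0, but 309 with no filter, 3879 with array weights (Clca1 at -0.48, adjusted p = 0.057), 58 without male OVA 8, 2 without female control 7 and 1 without female OVA 12 and male OVA 8 together. Female against male called 12, but 4 with the filter at the 75th percentile and 5 with the mean of all probe sets. For OVA against control all 8 members (7 with the filter at the 75th percentile, which Spdef did not pass) stayed below 0 under the other pseudocounts, scalings, filters, variance models, array weights, probe set rule and without the sex term. Signs turned in these cases, and the cause was not tested. With the pan-epithelial score as a covariate, Zg16 was at 0.047, Agr2 at 0.19 and Spdef at 0.20. Within females, Agr2 was at 0.051 and Spdef at 0.11. Leaving out 1 array at a time gave -0.28 to 0.051 for Agr2 and -0.43 to 0.11 for Spdef, both above 0 without male control 8. Relative to the pan-epithelial score, Muc2 was at 0.10 and Muc13 at 0.11 within females, Spdef at -0.13 within males, Tff3 at -0.0027 with array weights, and Tff3 at -0.035 without female OVA 12 and male OVA 8 together, an alternative added after the data were seen. Leaving out 1 array at a time gave -0.58 to 0.10 for Muc2, -0.28 to 0.11 for Muc13, -0.036 to 0.080 for Tff3 and -0.13 to 0.30 for Spdef on that scale. For female against male, Zg16 was at 0.036 with quantile normalization and 0.0087 with median centring, and Muc13 at 0.095 with array weights and 0.096 in the OVA arrays alone. Without 1 array this difference was -0.22 to 0.0094 for Clca1, -0.14 to 0.013 for Tff3, -0.070 to 0.023 for Zg16, -0.15 to 0.096 for Muc13 and -0.010 to 0.32 for Spdef. The male minus female OVA effect on Zg16 was -0.038 with quantile normalization. Without either control that effect could not be fitted. No paired analysis was run because the labels give no pairing of control and OVA mice, and a shared mouse number does not make a pair. The number of control arrays, 2, limits the precision of every comparison above.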

Other observations

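Some other secretory products were low in male OVA 5 and 8, the mice in which Muc2 was also lowest. These genes were picked from the lists after their values were seen. Guca2a, the hormone guanylin of goblet cells and enterocytes, was at 2734 and 2899.6 in the female and male control and at 2709 to 3065 in 4 OVA mice, but at 1411 in male OVA 5 and 1013 in male OVA 8. Ang4, an antimicrobial ribonuclease of Paneth and goblet cells, was at 832 and 559.8 in these 2 males and at 1545 to 2212 in the other 6 arrays. Mptx1, a mucosal pentraxin, was at 86.0 and 101 in them and at 267 to 646 in the others. The smooth muscle score was also lowest in male OVA 5, 0.61 below the mean of the arrays (-0.61), and next in male OVA 8 (-0.30). Zg16 and Fcgbp in male OVA 5 were above their means by 0.12 and 0.13. Other secreted products were not low there either. Dmbt1 was at 2834 in male OVA 5, its highest of the 8 arrays, and at 2202 in male OVA 8. Reg4 was at 567 in male OVA 5, between the controls (541 and 627), and at 269 in male OVA 8.

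Dclk1, a tuft cell marker, lay on the other side from most epithelial genes. It was at 40.7 and 37.7 in the female and male control and at 51.6 to 103 in OVA mice, so the groups did not overlap (as for 7.99% of genes in this direction). Its log2 difference was 0.64 ± 0.26 (SE) and did not pass limma's test (adjusted p = 0.425). Its highest values were in male OVA 8 (103) and female OVA 12 (77.3), the arrays with the highest B cell scores. Of 9 enteroendocrine and tuft cell markers past the filter, 5 were lower and 4 higher (median -0.05). Avil, another tuft cell marker, was at 0.14 ± 0.20 (SE), and Trpm5 and Pou2f3 were below the filter. Whether Dclk1 stands for tuft cells here was not tested.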
